A study of Rattus norvegicus with 32 samples.

Results

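Ang II acts on the AT1 and AT2 receptors, and the genes described here encode the proteins that carry the AT1 signal into the cell and end it. The set holds 10 genes, and each was matched by its name in the scanner files: Gnaq, Gna11, Gna12 and Gna13 encode G protein alpha subunits, Plcb1 and Plcb3 phospholipases C, Prkca a protein kinase C, Rgs2 and Rgs4 regulators of G protein signalling, and Arrb1 a beta-arrestin. They are 10 of 26583 gene names on the array and are measured by 13 of its 30367 probes. C6 is a rat glioma cell line. Its cells were left without treatment (Control), given Ang II at 100 nM, or pre-treated with Losartan (Los), an antagonist of AT1, or with PD123319, an antagonist of AT2, each at 10 µM, before the same dose of Ang II. RNA was taken 3 h or 6 h later, and with 4 replicates for each treatment and interval there were 32 arrays. No group received an antagonist without Ang II, so the effect of either antagonist alone cannot be read from these arrays. Nothing in the labels says that replicates were separate cultures, and the p-values measure only the spread between these samples, which may be technical.

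As background, the AT1 receptor couples mainly to the Gq family, to which the products of Gnaq and Gna11 belong. Gq activates phospholipase C beta, which cleaves a membrane lipid into inositol trisphosphate and diacylglycerol, and diacylglycerol together with calcium activates protein kinase C alpha. The products of Gna12 and Gna13 form the G12 family, which acts through guanine exchange factors. RGS proteins speed up the hydrolysis of GTP by alpha subunits and so shorten the signal, and beta-arrestins uncouple phosphorylated receptors from G proteins and bring about their uptake.

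The 60-base probes of Gnaq, Gna11, Plcb3, Prkca and Arrb1 are shown because they define what was measured in the comparisons below. They are written 5′ to 3′ in lower case, with no letter singled out, as the whole probe hybridizes.
Gnaq: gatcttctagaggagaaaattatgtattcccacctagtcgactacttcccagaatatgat
Gna11: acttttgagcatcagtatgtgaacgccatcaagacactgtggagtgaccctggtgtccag
Plcb3: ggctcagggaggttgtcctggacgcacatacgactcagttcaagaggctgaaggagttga
Prkca: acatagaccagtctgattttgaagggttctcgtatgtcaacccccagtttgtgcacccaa
Arrb1: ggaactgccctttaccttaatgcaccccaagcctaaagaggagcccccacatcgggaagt
Per the file headers, positions are on the rat build rn4. The Gnaq probe lies at chr1:219758699-219758758 and the Gna11 probe at chr7:9659914-9659973, both on the plus strand. The Plcb3 probe lies at chr1:209629346-209629405 and this Prkca probe at chr10:97368739-97368798, both on the minus strand. The Arrb1 probe is given at chr1:156935044-156936093 on the plus strand, a span of 1050 bases for a probe of 60, so it joins sequences that are apart in the genome. The Gna12 probe lies at chr12:14354680-14354739 on the plus strand. Prkca, Rgs2 and Plcb1 have 2 probes each. GC content ranged from 35% to 55% among the 13 probes, and the accessions of 10 probes were found in RefSeq under the same symbol.

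The signal was the log2 of the background-subtracted intensity after cyclic loess within each time interval. A probe counted as measured when, in 1 group or more, the scanner software found it well above background in all 4 replicates. The software applied its multiplier for that call as 2.6 at 3 h and 13 at 6 h, so the calls follow different rules at the 2 intervals. Between 55.9% and 64.7% of the spots met it at 3 h, and between 64.2% and 79.8% at 6 h. By this rule 7 of the 10 genes were tested at 3 h and 8 at 6 h. Every slide carried 1 array of each group in the same order of positions, so that position on the slide and treatment cannot be told apart, and the replicate number is that of the slide. Among markers of astrocytes and glioma, S100b, Vim, Nes and Aldoc were well above background on 16 of 16 arrays at both intervals, whereas Gfap was so on 0 arrays at 3 h and 2 at 6 h and Slc1a3 on 0. Of 6 markers of microglia and macrophages, 4 were well above background on all 16 arrays at 3 h and 5 at 6 h, and Ptprc, which defines leukocytes, on 0 at both. Marker genes that passed in a study comparison were Cx3cr1 with Ang II and Cnp with Losartan at 3 h, and Cnp with Ang II and S100b and Aif1 with PD123319 at 6 h, and their part in the results below was not tested.

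The receptors that stand above these proteins were not measurable on these arrays. Agtr1a, Agtr1b, Agtr2 and Mas1 were each well above background on 0 of 16 arrays at 3 h and 0 of 16 at 6 h. No comparison of receptor levels was therefore possible from the arrays. The study measured expression of the AT1 and AT2 receptors by qPCR, which was not used here. Agtrap, whose product binds the AT1 receptor and promotes its uptake, was well above background on 16 arrays at both intervals. Among the members, Rgs4 was well above background on 0 of 16 arrays at each interval and Gna13 on 1 of 16 at 3 h and 5 of 16 at 6 h. Rgs4 and Gna13 therefore have no fold change in the reported fits. Both were fitted in the setting without a filter, where their signal was rarely or never well above background. Gnaq was well above background on 9 of 16 arrays at 3 h and was not tested there, and on 16 of 16 at 6 h.

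After 3 h of Ang II, Gna12 was the only member that passed the study's threshold, an unadjusted p under 0.05. Its signal was 3.70, 4.29, 3.78 and 3.92 in Control replicates 1 to 4 and 4.20, 5.28, 4.29 and 4.77 with Ang II. The value with Ang II was higher on all 4 slides, by 0.49, 0.99, 0.51 and 0.85, while the ranges of the groups overlapped. The mean was 3.92 ± 0.26 in Control and 4.64 ± 0.50 with Ang II (log2, SD, n = 4). This is a log2 fold change of 0.71 (SE 0.22, limma adjusted p = 0.322), or 1.64-fold. In RNA of whole cultures, more cells of a kind and more RNA per cell cannot be told apart. Gna12 was a dim probe, and on the slide of replicate 3 it was not well above background in Control, Ang II or Ang II + Los. It was tested at 3 h only because it was well above background on 4 of 4 arrays of Ang II + PD123319. Neither Control nor Ang II met that rule, with 3 of 4 arrays each. With the normexp background the log2 fold change was 0.21, which did not pass. That setting adds an offset of 50 to each intensity, which shrinks the log2 differences of dim probes whatever the treatment. Within scan 1, which read replicates 1 and 2, Gna12 did not pass either, in a fit added after seeing the data.

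In Ang II x Control at 3 h, 1 of the 7 members tested passed, beside 12.7% of all 13630 genes, and the median log2 fold change was 0.09 over the members and 0.00219 over all genes. With 7 genes, 1 call is near the background and says nothing of the group. None of the members, nor any gene, had an adjusted p under 0.05 in this comparison. Gna11 had 0.09 (95% interval -0.66 to 0.84), Plcb1 0.15 (-0.14 to 0.44), Rgs2 0.01 (-0.52 to 0.55), Arrb1 0.02 (-0.27 to 0.30) and Prkca -0.15 (-0.38 to 0.08), all as log2 fold changes. Their intervals hold 0 and also hold changes of the size of several calls made elsewhere.

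Plcb3, the isoform that also responds strongly to beta-gamma subunits, shows how 1 library can carry a difference. The signal was 7.37, 3.18, 6.30 and 7.02 in Control replicates 1 to 4 and 7.65, 7.35, 6.39 and 7.01 with Ang II. Control replicate 2 stood far below the rest and was the only array of the 16 on which the probe was not well above background. The log2 fold change was 1.14 (SE 0.58, limma adjusted p = 0.419) with all replicates and 0.12 without replicate 2, and passed in neither. With the normexp background it was 0.39 and passed. The difference between Ang II and Control on that slide was 4.18, against 0.28, 0.09 and -0.01 on the others.

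**Figure D1:**
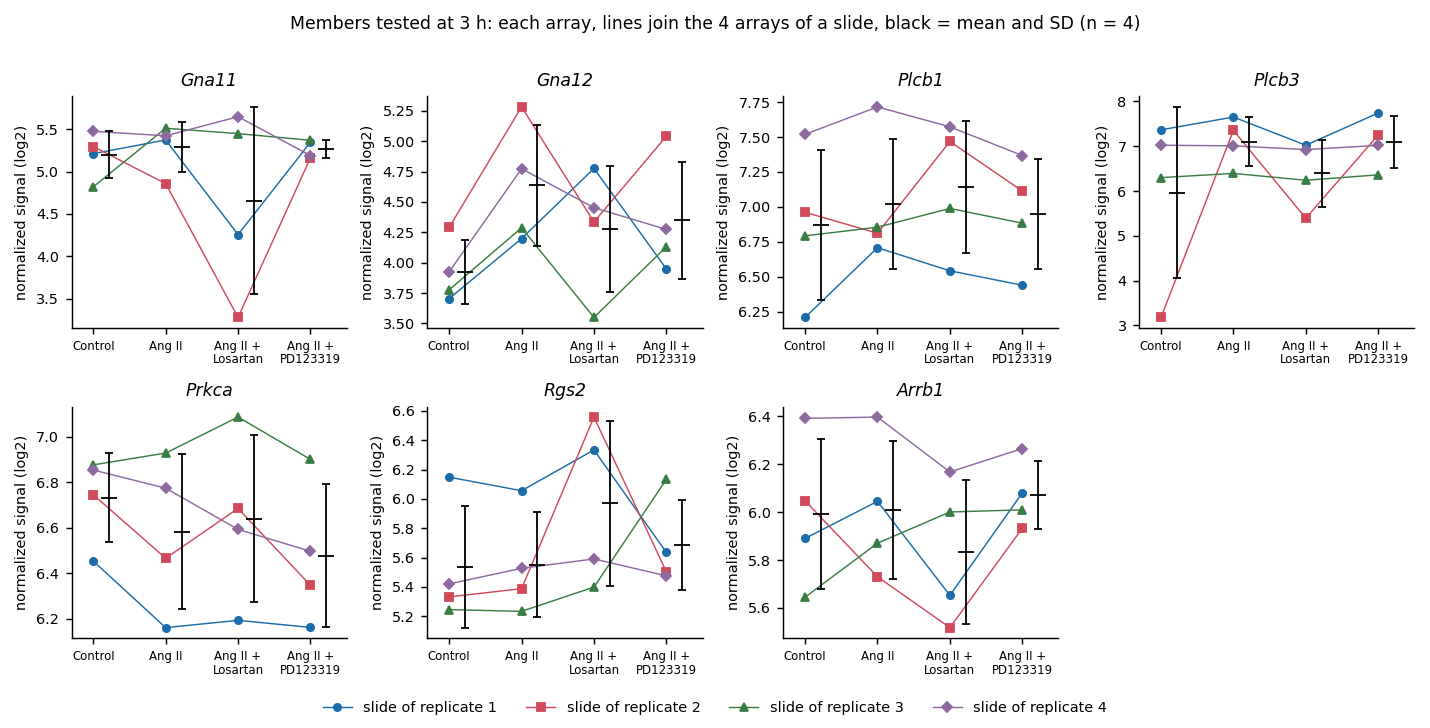
Normalized signal (log2) of the 7 members tested at 3 h, by group. Each point is 1 array, lines join the 4 arrays of a slide, and black marks give the mean and SD of 4 replicates. Gna12 is higher with Ang II than in Control on every slide, and Plcb3 in Control replicate 2 lies at 3.18.

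Losartan against Ang II addresses the AT1 share of the response, and at 3 h it gave no call among the members. The count was 0 of 7 under limma at the unadjusted threshold, beside 10.9% of all genes, and it was also 0 by both of the methods' t-tests. Gna11, the second Gq subunit, was 4.26, 3.28, 5.45 and 5.65 with Losartan and 5.37, 4.86, 5.51 and 5.42 with Ang II alone. Replicates 1 and 2 were lower by 1.12 and 1.58, whereas replicates 3 and 4 differed by -0.06 and 0.23. Replicates 1 and 2 were read in scan 1 and the others in scan 2. Fits within a scan, added after seeing the data and of 2 slides each, gave -1.35, which passed, and 0.08, and restate this split. The part of the scan in it was not tested. Over all 4 replicates it was -0.63 (SE 0.35, limma adjusted p = 0.429). Losartan replicate 2 was the only array on which the Gna11 probe was not well above background.

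Gna12 did not pass in either antagonist comparison at 3 h. Its signal was 4.78, 4.34, 3.55 and 4.45 with Losartan and 3.95, 5.04, 4.13 and 4.27 with PD123319. Against Ang II the log2 fold change was -0.36 with Losartan (95% interval -0.84 to 0.13) and -0.29 with PD123319 (-0.77 to 0.20). With PD123319 the value was below that of Ang II on all 4 slides, and with Losartan on 3 of them. Without replicate 1, in which Losartan was the higher, the log2 fold change with Losartan was -0.67 and passed. The arrays of Ang II are shared by these comparisons and by Ang II x Control, so a high or low value there moves all of them.

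For PD123319 against Ang II at 3 h, 0 of 7 members passed, beside 2.99% of all genes, whereas the methods' paired t-test gave 1, Gna12. Across the comparisons with Control, 0 of 7 passed for Ang II+Los, beside 21.7% of all genes, and 1 of 7 for Ang II+PD123319, beside 7.59%. That gene was Prkca, which had -0.26 (SE 0.11, limma adjusted p = 0.633), with differences of -0.29, -0.40, 0.02 and -0.36. The call for Prkca was lost without replicate 1, 2 or 4 and within each scan, while the log2 fold change stayed between -0.35 and -0.21 with any replicate left out. Directly between the antagonists 0 of 7 passed at 3 h, beside 14.6% of all genes.

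Rgs2, whose product preferentially acts on Gq, had a positive difference on all 4 slides with Losartan at 3 h. The signal was 6.33, 6.56, 5.40 and 5.59 with Losartan and 6.06, 5.39, 5.23 and 5.53 with Ang II. The log2 fold change was 0.42 (SE 0.25, limma adjusted p = 0.441), with 1.17 on the slide of replicate 2 and 0.06 to 0.28 on the others. The probes of Rgs2 differed in this comparison, with 0.67 for one and 0.17 for the other, and neither passed.

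At 6 h the Gq subunit itself was higher with Ang II. Gnaq was 5.26, 4.77, 5.68 and 5.24 in Control and 5.75, 5.00, 5.75 and 5.59 with Ang II, replicates 1 to 4. It was higher on all 4 slides, by 0.48, 0.23, 0.06 and 0.35, and the group ranges overlapped. The mean was 5.24 ± 0.37 in Control and 5.52 ± 0.35 with Ang II (log2, SD, n = 4), a log2 fold change of 0.28 (SE 0.07, limma adjusted p = 0.095), or 1.21-fold. The call was lost with the normexp background, where the log2 fold change was 0.08, and without the replicate block. Neither of the methods' t-tests passed. The offset of the normexp setting shrinks the differences of dim probes such as this one.

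Both antagonists gave Gnaq values below those of Ang II alone on every slide at 6 h. The signal was 5.57, 4.94, 5.57 and 5.43 with Losartan and 5.54, 4.85, 5.62 and 5.37 with PD123319. Against Ang II, Gnaq fell with PD123319 by 0.18 on the log2 scale (SE 0.07, limma adjusted p = 0.737). With Losartan the difference was -0.14 (SE 0.07, limma adjusted p = 1), which did not pass. The antagonists differed from each other by 0.03 (95% interval -0.12 to 0.19), Losartan minus PD123319. Both stood above Control, by 0.14 and 0.10, and neither difference passed. The call for PD123319 was lost without replicate 1, 2 or 4 (-0.17, -0.19 and -0.16) and with 75th percentile scaling (-0.10), and the Ang II arrays are the same as in Ang II x Control.

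Between Ang II and Control at 6 h, 1 of 8 members passed, beside 21.5% of all 16446 genes. A single call among 8 is below that share. None of all genes had an adjusted p under 0.05 there. The median log2 fold change was 0.02 over the members. Gna12 had 0.02 (95% interval -0.26 to 0.29), Plcb3 0.02 (-0.32 to 0.36), Prkca 0.01 (-0.11 to 0.13) and Arrb1 0.01 (-0.16 to 0.18). The value of Prkca averages probes of opposite sign, 0.12 and -0.10, and neither passed. Plcb1 had -0.09 (-0.53 to 0.35), and its probes also had opposite signs, -0.31 and 0.13, without a call.

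Rgs2 at 6 h had the highest log2 fold change of the members without a call. It was 6.26, 5.51, 6.69 and 5.94 in Control and 6.13, 6.29, 6.64 and 6.62 with Ang II. The slides split, with -0.13 and -0.05 in replicates 1 and 3 and 0.78 and 0.68 in replicates 2 and 4, and the mean was 0.32 (SE 0.16, limma adjusted p = 0.258). Its probes gave 0.47 (SE 0.14, limma adjusted p = 0.122) and 0.17 (SE 0.18, limma adjusted p = 0.601), and the first passed. The gene passed without replicate 1 (0.47) and without replicate 3 (0.45), and not without replicate 2 (0.17) or 4 (0.20).

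**Figure D2:**
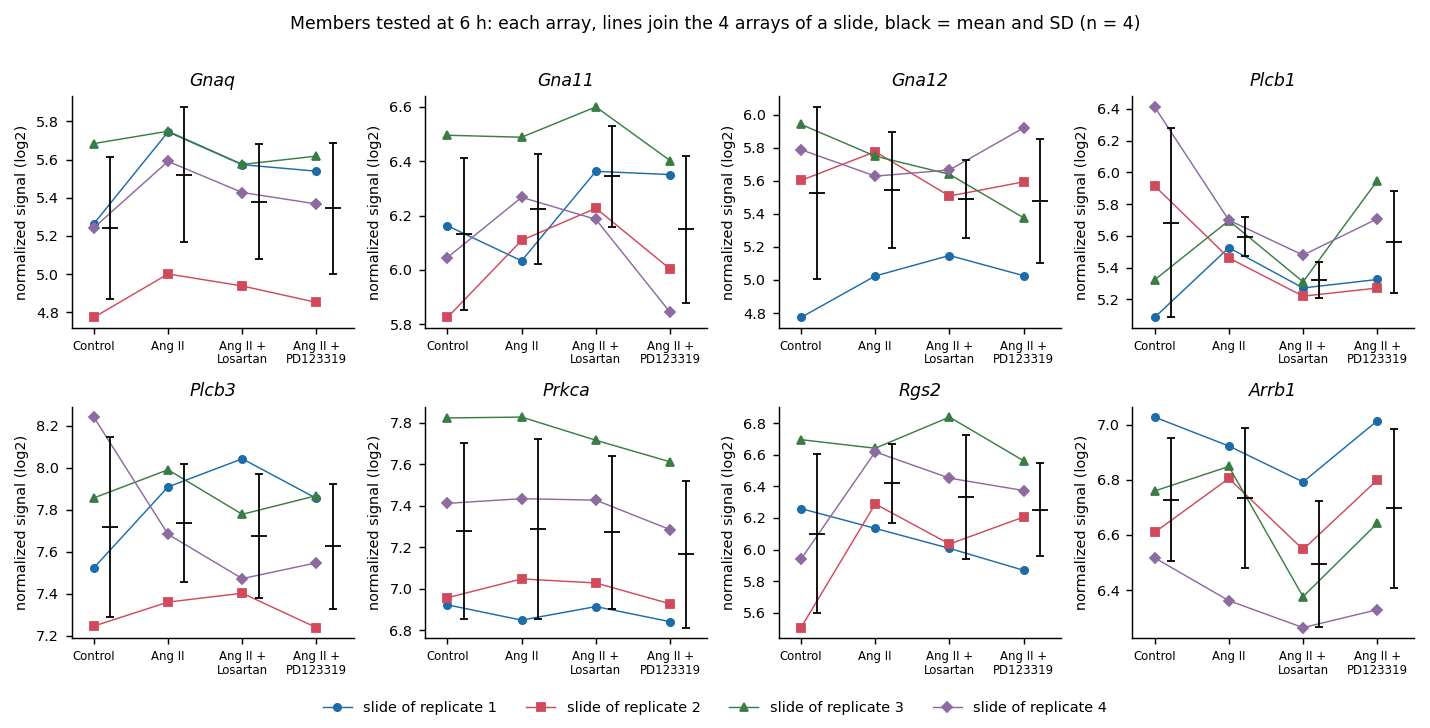
Normalized signal (log2) of the 8 members tested at 6 h, by group, drawn as for 3 h. Gnaq is higher with Ang II than in Control on every slide, and Arrb1 is lower with Ang II + Losartan than with Ang II on every slide.

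Arrb1 was the only member that passed for Losartan against Ang II at 6 h by the limma fit. It was 6.92, 6.80, 6.85 and 6.36 with Ang II and 6.79, 6.55, 6.38 and 6.26 with Losartan. The difference was -0.13, -0.26, -0.47 and -0.10, below 0 on all 4 slides, and the group ranges overlapped. Arrb1 fell by 0.24 on the log2 scale (SE 0.08, limma adjusted p = 1), 0.847-fold, and was the gene of rank 51 by p among 16446. It was also lower with Losartan than in Control, by -0.23 (SE 0.08, limma adjusted p = 0.115), and than with PD123319, by -0.20 (SE 0.08, limma adjusted p = 0.54). The 3 comparisons share the Losartan arrays. Ang II alone left Arrb1 at 0.01 against Control, and PD123319 at -0.03 (95% interval -0.20 to 0.14). Without replicate 3 the difference from Ang II was -0.16 and did not pass, and neither of the methods' t-tests passed. Plcb1 had a lower value in the same comparison, -0.28 (SE 0.20, limma adjusted p = 1), with -0.25, -0.24, -0.39 and -0.22 on the slides. It did not pass by limma on 16 arrays, and passed by both of the methods' t-tests and with the 8 arrays of the comparison alone, while Gnaq passed by the methods' paired t-test.

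For Losartan against Ang II at 6 h the count was 1 of 8 members, beside 1.99% of all genes, and for PD123319 it was 2 of 8 (Gnaq and Prkca), beside 6.37%. The median log2 fold change over the members was -0.07 and -0.09, against -0.000864 and -0.00378 over all genes, and 8 of 8 members had a value below 0 with PD123319. These are counts of few genes, and no test over the set was made. The share of all genes below 0 was not counted, and all members share the same Ang II arrays. Under other settings of processing and test, Gna12 (-0.10 to 0.008) and Plcb1 (-0.07 to 0.05) crossed 0 with PD123319. Prkca was 6.85, 7.05, 7.83 and 7.43 with Ang II and 6.84, 6.93, 7.61 and 7.29 with PD123319. Prkca fell by 0.12 on the log2 scale (SE 0.05, limma adjusted p = 0.762). Its probes gave -0.19, which passed, and -0.06, which did not, and the call for the gene was lost without replicate 2, 3 or 4, while the log2 fold change stayed between -0.16 and -0.09 with any replicate left out. Of 12 settings of processing and test, the reported one included, Prkca passed in 3, with log2 fold changes from -0.13 to -0.06.

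For the remaining comparisons at 6 h, the members that passed numbered 1 of 8 for Losartan against Control, beside 21.9% of all genes, 0 of 8 for PD123319 against Control, beside 22.9%, and 1 of 8 for Losartan against PD123319, beside 8.07%. Arrb1 was the gene in both. The methods' t-tests also gave 0 for PD123319 against Control. Adjusted p was under 0.05 for 1.36% of all genes for Losartan and 1.38% for PD123319 against Control at 6 h, and for 0 genes in the other 10 comparisons. No member was among them. Members near the threshold included Gna11 for Losartan against Control (0.21, SE 0.10), higher on all 4 slides, and Plcb1 in the same comparison (-0.36, SE 0.20). Nearer than Plcb1 were also Gnaq for Losartan against Control (0.14, SE 0.07) and Prkca for PD123319 against Control (-0.11, SE 0.05). So were Gna11 (0.19, SE 0.10) and Prkca (0.10, SE 0.05) for Losartan against PD123319. For Losartan against Control, the Plcb1 probes gave -0.55 (limma adjusted p = 0.0881), which passed, and -0.18.

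**Figure D3:**
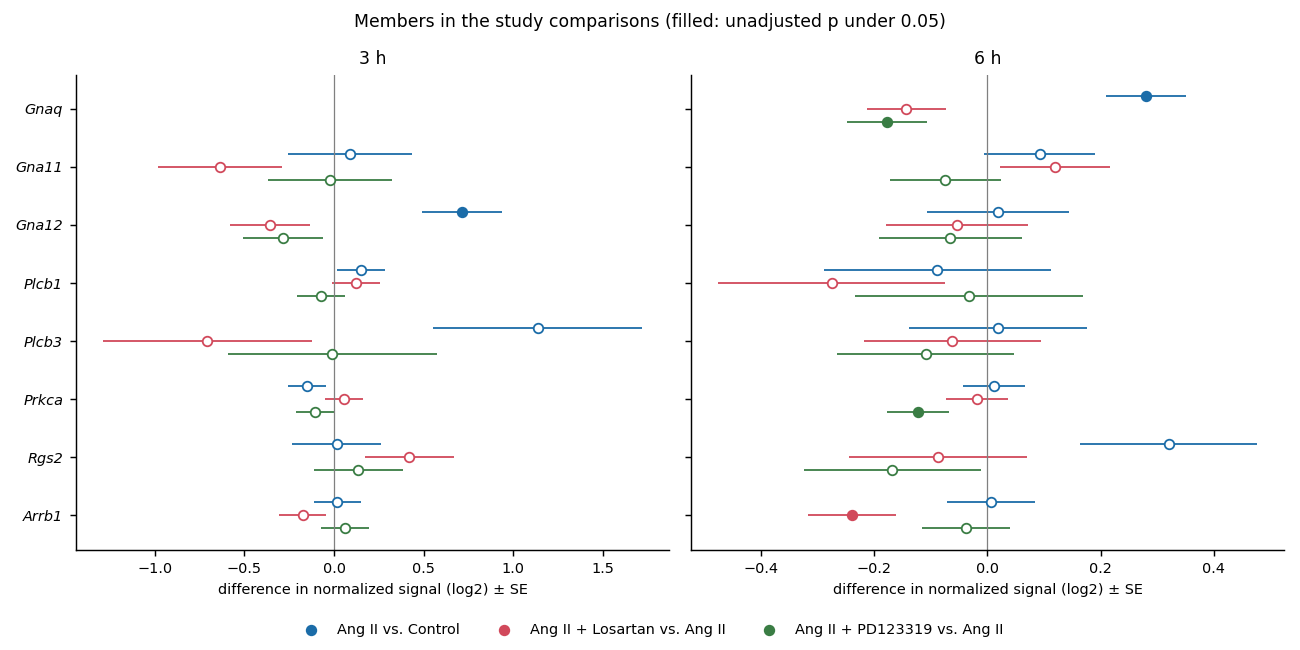
Difference in normalized signal (log2) with its standard error for the members in the study comparisons, at 3 h and 6 h on separate scales. Filled points have an unadjusted p under 0.05: Gna12 at 3 h and Gnaq at 6 h for Ang II x Control, Arrb1 for Losartan and Gnaq and Prkca for PD123319 at 6 h.

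The difference between the intervals was tested in 1 model over the 32 arrays for the 7 members tested at both. For Plcb1 only the brighter probe was kept at 3 h, whereas both probes were averaged at 6 h, so its values are unlike measures. For the Ang II contrast 1 of 7 passed, beside 7.19% of 13617 genes, and the gene was Gna12. Its change of 0.71 (log2) at 3 h stood against 0.02 at 6 h, a difference of -0.69 (SE 0.26, limma adjusted p = 0.667). For Losartan 0 of 7 passed, beside 5.02%, and for PD123319 0 of 7, beside 1.73%. The intervals differ in slides, scans and scanner settings, which cannot be told apart from time.

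The rest of the pathway was followed in 9 lists of 99 genes, of which 94 are on the array. With Ang II, 59 of these were tested at 3 h, of which 5 were higher and 5 lower (16.9%), and 67 at 6 h, of which 13 were higher and 5 lower (26.9%), all at an unadjusted p under 0.05 and none at an adjusted one. Beside these shares, 12.7% and 21.5% of all genes passed. At 3 h Agtrap fell by 0.46 on the log2 scale (SE 0.10, limma adjusted p = 0.322) and was lower on all 4 slides. Gnal, the olfactory alpha subunit, had -0.47 (SE 0.15), and Grk6, a receptor kinase, 0.53 (SE 0.17). Among the genes that handle inositol phosphates, Inpp5a had -0.34, Pip5k1b 0.41 and Itpka 0.45. Of the guanine exchange factors, Arhgef11 had 0.53, whereas Arhgef1 had -0.33.

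At 6 h Rhob, a small GTPase, rose with Ang II by 0.59 on the log2 scale (SE 0.10, limma adjusted p = 0.0575), with 0.77, 0.58, 0.53 and 0.48 on the slides. Rock1, a protein kinase, had 0.49, Prkce 0.69, Prkd2 0.27 and Grk6 0.41. Plcg1, Plcd1 and Itpr2 also rose, by 0.27, 0.26 and 0.32. Among the lower were Gng8 (-0.35), Plce1 (-0.35), Rgs16 (-0.49) and Rgs12 (-0.16). The subunit gene Gnb5 (0.27) and Rgs17 (0.16) passed with a positive sign, so that beta, gamma and RGS genes moved both ways. Pip5k1b (0.31), Prkd2 and Grk6 passed with a positive sign at both intervals.

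With the antagonists the pathway counts were smaller, as were the shares of all genes that passed at 3 h (10.9% with Losartan and 2.99% with PD123319) and at 6 h (1.99% and 6.37%). For Losartan against Ang II, 1 of 59 was higher and 7 lower at 3 h (13.6%), among them Gnb2 (-0.63), Plcg1 (-0.59) and Rhob (-0.75), and 1 of 67 was higher and 2 lower at 6 h. On the slide of replicate 2 these 3 genes had -1.59, -1.76 and -1.95, which was the largest difference of the 4 slides for each. For PD123319 against Ang II, 2 of 59 were higher at 3 h, among them Inpp5a with 0.36, and 1 of 67 at 6 h, Agtrap with 0.15. The 6 h genes with Losartan were Arrb2, the second beta-arrestin, with 0.13 (SE 0.05, limma adjusted p = 1), Itpr1 with -0.18 and Inpp5a with -0.29. Arrb2 was thus higher and Arrb1 lower with Losartan on all 4 slides at 6 h.

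Over all 32 arrays, after removal of each slide's mean, the genes most like Gna12 were Agap3 (r = 0.85), Wbscr16 (0.82) and Acy1 (0.81). For Arrb1 they were Sall2 (0.74), Card6 (0.74) and Clip3 (0.74), and for Prkca Cbl (0.76), Rrp1b (0.75) and Ctu2 (0.74). These are the highest of 8563 genes compared, over arrays that share slides and normalization.

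Promoters were available in RefSeq for 9 members (build GRCr8, Arrb1 is not listed). The 250 bases before the start were 54.4% to 83.2% GC, against a median of 51.2% over 33469 promoters. A GC box, GGGCGG on either strand, lay in 7 of 9, compared with 30.5% of all promoters. TGACG, which is part of the CRE, lay in 4 of 9 (Gnaq, Plcb3, Rgs2 and Rgs4) against 18.2%, and the whole CRE, TGACGTCA, in 0 of 9 against 1.59%. The AP-1 letters TGANTCA and the E box CACGTG also lay in 0 of 9, against 6.34% and 5.59%. The promoters of the alpha subunits that were higher with Ang II are shown with the GC boxes in capitals, Gna12 from chr12:18919379-18919628 and Gnaq from chr1:222852203-222852452, both on the plus strand.
Gna12: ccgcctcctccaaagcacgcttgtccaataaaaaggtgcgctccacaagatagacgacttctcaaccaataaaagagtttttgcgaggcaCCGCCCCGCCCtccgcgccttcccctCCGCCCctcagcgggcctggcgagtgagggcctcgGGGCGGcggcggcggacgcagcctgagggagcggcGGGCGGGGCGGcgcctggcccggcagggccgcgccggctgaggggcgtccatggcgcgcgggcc
Gnaq: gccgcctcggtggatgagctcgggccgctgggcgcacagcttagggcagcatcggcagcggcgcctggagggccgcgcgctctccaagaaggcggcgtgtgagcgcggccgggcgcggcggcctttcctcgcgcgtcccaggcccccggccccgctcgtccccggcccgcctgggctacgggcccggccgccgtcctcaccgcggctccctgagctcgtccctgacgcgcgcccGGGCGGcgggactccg
Gna12 held 6 GC boxes and Gnaq 1. A match of letters is a description of the sequence, and no binding was measured.

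**Figure D4:**
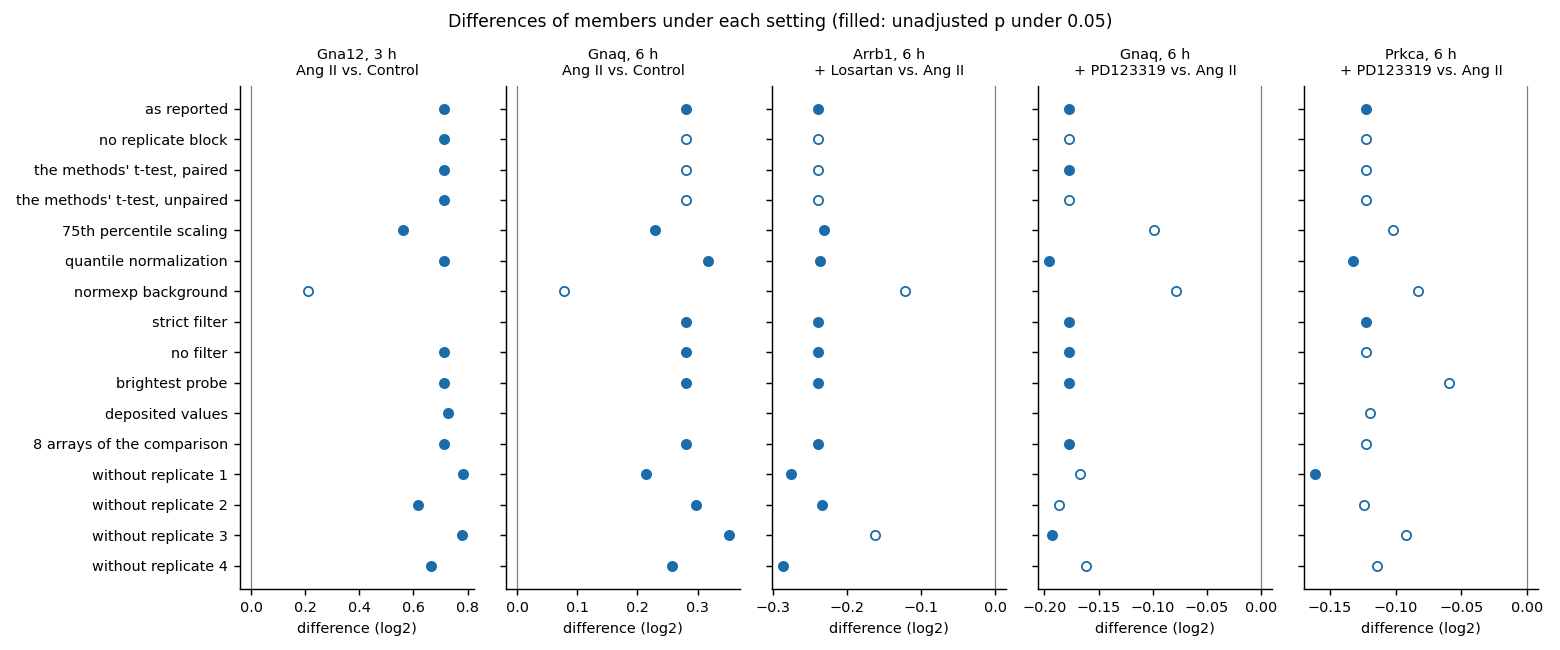
Log2 difference of the 5 member results that passed in the study comparisons, as reported and under each other setting, with a scale for each panel. Filled points have an unadjusted p under 0.05. Every value kept its sign, Gna12 lost its call only with the normexp background among the settings drawn, where the strict filter left it out, and the deposited values gave no value for Gnaq or Arrb1.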

How the data were processed

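RNA of 32 C6 samples was hybridized to single-dye Agilent rat arrays. Per the file headers, the authors scanned them with Feature Extraction 9.5.3.1 (the study's methods name another release), which gives a background-subtracted intensity for each spot, and they deposited its log2 per probe without scaling between arrays. The scanner intensities were used here. Spots flagged as outliers were left out, spots at 3 h that were not significant took the error of their signal, spots of a probe were averaged, and up to 2 gaps were allowed for each probe. Cyclic loess (span 0.7, 3 iterations) was run over the 16 arrays of a time interval. Probes well above background on all 4 arrays of a group were kept and averaged per gene.

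Each comparison was fitted with limma 3.58.1 in R 4.3.3 on 16 arrays, blocked by replicate number, and p-values were adjusted by Benjamini-Hochberg over all genes. The study's threshold, an unadjusted p under 0.05, counts as a call, and 12 comparisons were made in all, 6 for each interval. The replicate number is the slide, from the file headers, and same-numbered arrays correlated at 0.15 to 0.92 at 3 h and 0.55 to 0.83 at 6 h after group means were removed. No pair of arrays was identical, and the highest correlation was 0.998. Fold changes (log2) had a median SE of 0.16 at 3 h and 0.10 at 6 h, since 4 arrays a group limit the precision. Every member and the 3 pathway genes of lowest p per list and comparison were open to naming. Members and lists were chosen with earlier results of these data known. The methods' t-tests, scaling, filters, background, deposited values, single probes and each replicate left out were tried as alternatives. The alternative background was normexp with an offset of 50, and the fits within each scan were added after seeing the data. The fits were tested on simulated data. Figures used Python 3.11.15, pandas 2.3.3 and matplotlib 3.10.9. The study's qPCR was not used here. Not every pathway gene that passed is named here.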

Additional observations from a re-analysis of the deposited data

Results flagged for a closer look

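Of 60 sets of 4 replicates of a member, 1 held a value far from the others, where chance gives about 1 in 20. Plcb1 with Ang II at 3 h was 7.72 in replicate 4 and at most 6.85 in the others. The slide of replicate 4 was also the highest in Control (7.52), with Losartan (7.57) and with PD123319 (7.37). The change of Gna12 with Ang II differed between the intervals by -0.69, 6 h minus 3 h (limma adjusted p = 0.667).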

How the results depend on the processing

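No fold change of a member that passed turned its sign under any setting. Some that did not pass did, such as Plcb1 for Los against Ang II at 3 h (-0.42 to 0.17) and Rgs2 for Ang II against Control at 3 h (-0.14 to 0.17). Numbers of members that passed, with the reported number first, were as follows. Without the replicate block, the count went from 1 to 0 in Ang II against Control, Los against Ang II, Los against Control and Los against PD123319 at 6 h and in PD123319 against Control at 3 h, from 2 to 0 in PD123319 against Ang II at 6 h, and from 1 to 0 for the difference between intervals in Ang II against Control. The methods' unpaired t-test also gave 0 in Ang II against Control, Los against Control, Los against PD123319 and PD123319 against Ang II at 6 h and in PD123319 against Control at 3 h. The paired t-test gave 0 for Ang II against Control at 6 h, 3 for PD123319 against Ang II at 6 h, 2 for Los against Ang II, Los against Control and Los against PD123319 at 6 h, and 1 for PD123319 against Ang II and Los against PD123319 at 3 h. Normexp gave 0 in Ang II against Control, Los against Ang II, PD123319 against Ang II and Los against PD123319 at 6 h, 2 in PD123319 against Control at 6 h, 1 in Los against Ang II and Los against PD123319 at 3 h, and 1 for the Losartan difference between intervals. With 75th percentile scaling it was 0 in PD123319 against Ang II at 6 h and 1 in Los against PD123319 at 3 h, and with quantile normalization 3 in Los against Control at 6 h and 2 in PD123319 against Control at 3 h. The strict filter gave 0 in Ang II against Control at 3 h and for its difference between intervals, where Gna12 was not kept, and 2 in Los against Control at 6 h. No filter gave 2 in Ang II against Control and PD123319 against Control at 3 h, 2 in Los against Ang II and Los against Control at 6 h, 1 in Los against Control at 3 h and PD123319 against Ang II at 6 h, and 2 and 1 for the Ang II and Losartan differences between intervals. Gna13, seldom well above background, was among those that passed in each of these single-interval comparisons but PD123319 against Ang II at 6 h. The brightest probe gave 2 in Los against Control and 1 in PD123319 against Ang II at 6 h, 0 in PD123319 against Control at 3 h and 2 for the Ang II difference. The deposited values gave 0 in Los against Ang II, PD123319 against Ang II and Los against PD123319 at 6 h, 2 in PD123319 against Control at 6 h, 1 in Los against Control at 3 h and 2 for the Ang II difference. The 8 arrays alone gave 3 in Los against Ang II and 2 in Los against PD123319 at 6 h and 1 in PD123319 against Ang II at 3 h. Within scan 1 it was 2 in Los against Ang II, Los against Control and Los against PD123319, within scan 2 it was 1 in Los against Ang II and 0 in PD123319 against Control, and within scan 3, all added after seeing the data, the last being 6 h without replicate 4, 2 in Los against Control and 0 in PD123319 against Ang II. In Ang II against Control the count stayed at 1 within scan 1, but the gene was not Gna12. Scan 4 holds 1 slide and gave no test. The cause was not tested for any of these.

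With a replicate left out, the count at 3 h ranged from 1 to 1 in Ang II against Control, 0 to 1 in Los against Ang II, 0 to 0 in PD123319 against Ang II, 0 to 3 in Los against Control, 0 to 1 in PD123319 against Control and 0 to 2 in Los against PD123319. At 6 h it ranged from 1 to 2, 0 to 1, 0 to 1, 1 to 4, 0 to 1 and 0 to 1 in the same order, and for the differences between intervals from 0 to 1 with Ang II, 0 to 2 with Losartan and 0 to 0 with PD123319.

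Over the 12 comparisons, 327 to 3773 genes of all passed, with 37 to 900 without the block, 75 to 566 by the unpaired and 389 to 1913 by the paired t-test, 208 to 2680 with the deposited values, 411 to 2499 with 8 arrays and 606 to 4302 without a filter. An adjusted p under 0.05 was reached by up to 227 genes, up to 426 with the strict filter and 796 with a replicate left out, and by 0 without the block or by either t-test. Signal over background limits Rgs4 and Gna13 at both intervals and Gnaq and Gna12 at 3 h.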
